A study of Homo sapiens with 36 samples.

Results

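Treatment with docosahexaenoic acid (DHA) together with protocatechuic acid (PCA) was compared with the vehicle control (Ctrl) after 6 h in HepG2, a human hepatoma line used as a model of the hepatocyte. The comparison held 6 of the 36 RNA-seq samples of the series, 3 of DHA + PCA and 3 of Ctrl, chosen by the treatment and time in their labels and matched by replicate number. Cells of the DHA + PCA group received 50 µM DHA and 20 µM PCA, and Ctrl cells received albumin and vehicle without either compound. All groups were kept in serum-free DMEM during treatment, and the RNA of 3 culture wells was pooled for every sample. DHA alone (50 µM), PCA alone (20 µM) and DHA with 70 µM propionate (DHA + PRO), each with 3 samples of 6 h, were used to place the result. The main comparisons of 6 h came from a fit of all 18 samples of that time. This fit also held the 3 samples of propionate alone, for which no comparison is reported. A joint fit of all 36 samples was used to set the change at 24 h against that at 6 h. The question was which transcripts had moved by 6 h of the combined treatment, and whether PCA added anything to DHA at that time.

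DHA is a long-chain polyunsaturated fatty acid of fish oil, and PCA is a phenolic acid formed when anthocyanins are broken down in the body. Cells make cholesterol from acetyl-CoA, first through the mevalonate pathway and then from squalene through a series of sterol intermediates. The genes of these steps are switched on by SREBP-2, a transcription factor released from the endoplasmic reticulum membrane when sterols are scarce, while the related SREBP-1 acts mainly on fatty acid synthesis. Metallothioneins are small cysteine-rich proteins that bind zinc and copper, and their genes respond to zinc through the factor MTF1.

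Total counts of the 6 libraries ran from 5890657 to 10788964. Replicate 3 was the shallowest of each group, with 5890657 counts in Ctrl and 6727154 in DHA + PCA. All 9 hepatocyte markers examined, such as albumin and HNF4A, were present in both groups, with a summed level of 55710 to 62220 CPM (counts scaled to the size of the library) in Ctrl and 56910 to 61710 in DHA + PCA. The 4 endothelial markers lay below 1 CPM in all 6 libraries, and CDH5 and KDR were at 0. Of the 4 leukocyte markers, CD14 and CD68 reached 1 CPM in both groups and CD3E was at 0. PTPRC stayed below 1 CPM in Ctrl and was at 0 in DHA + PCA. The summed level of the 4 was 35.5 to 56.6 CPM in Ctrl and 47.9 to 60.4 in DHA + PCA. The fibroblast and stellate markers summed to 25.4 to 31.99 CPM in Ctrl and 29.1 to 31.1 in DHA + PCA. ACTA2 reached 1 CPM in both groups, and COL1A1 and COL1A2 only in Ctrl.

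After 6 h of DHA + PCA, transcripts of cholesterol synthesis and of sterol uptake fell, and 1 metallothionein rose. Of 11872 genes tested by edgeR's quasi-likelihood test with the replicate number as a block, 11 were called (0.0927%), meaning a Benjamini-Hochberg adjusted p no higher than 0.05 at an average log2 CPM over 0. Of these, 10 fell (0.0842% of genes tested) and 1 rose (0.00842%). The 10 that fell were 8 enzymes of cholesterol synthesis, among them HMGCS1, MSMO1, SQLE, IDI1, CYP51A1, HSD17B7 and FDFT1, and 2 genes of sterol uptake and traffic, among them the sterol carrier gene STARD4. The 1 that rose was MT1E. At an unadjusted p below 0.05 there were 1031 genes (8.68%), and over everything tested the median log2 fold change was -0.0033. In bulk RNA, fewer cells expressing a transcript and less transcript per cell cannot be told apart.

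The number of calls depended on the design of the fit. Without the replicate block 2 genes were called, among them HMGCS1 (edgeR adjusted p 9.2e-05). There MSMO1, SQLE and STARD4 had an edgeR adjusted p of 0.062, IDI1 of 0.2085 and HSD17B7 of 0.5885. For CYP51A1, FDFT1 and MT1E it was 0.9986 by the same test. In a fit of the 6 libraries alone 168 genes were called. In both groups the title of replicate 3 carries a library number of another series than the titles of replicates 1 and 2. What this library series stands for is not stated, and in these groups it cannot be told apart from replicate 3. The calls depended on replicate number 3. With all libraries of that number left out, 1 gene was called, HMGCS1, with an adjusted p of 0.00872 in edgeR's quasi-likelihood test (8.56e-20 to 0.00872 over all alternatives). Each of the 11 genes kept its direction in all 20 alternatives run.

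The change of a gene also moved with its GC content (Pearson r = 0.397 across 11195 genes, which are not independent replicates and share the 6 libraries). The median log2 fold change was -0.10 in genes with at most 43.3% GC and 0.13 in those with at least 57.6%. Within pairs of the same replicate number r was 0.208, 0.065 and 0.54 for replicates 1, 2 and 3. The 10 genes that fell had a GC content of 38% to 55.9% with a median of 41.8%, against a median of 49.8% over all genes. With a GC-content offset for each library and the block kept, 25 genes were called, and all 11 were among them. The falls of HMGCS1, MSMO1, IDI1 and SQLE were smaller with it, at -0.83, -0.68, -0.58 and -0.44. So were those of CYP51A1, HSD17B7, FDFT1 and STARD4, at -0.46, -0.695, -0.36 and -0.55. MVK and SREBF1 fell further with it, at -0.59 and -0.61. Of the genes named further on, MVK, SREBF1, CCL20, MT2A, MT1G, BHLHE40, LIPG, OSGIN1, ACSL4, SRXN1 and TRIB3 were called with that offset and not without it. The part of GC content in any single result was not tested further.

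**Figure D1:**
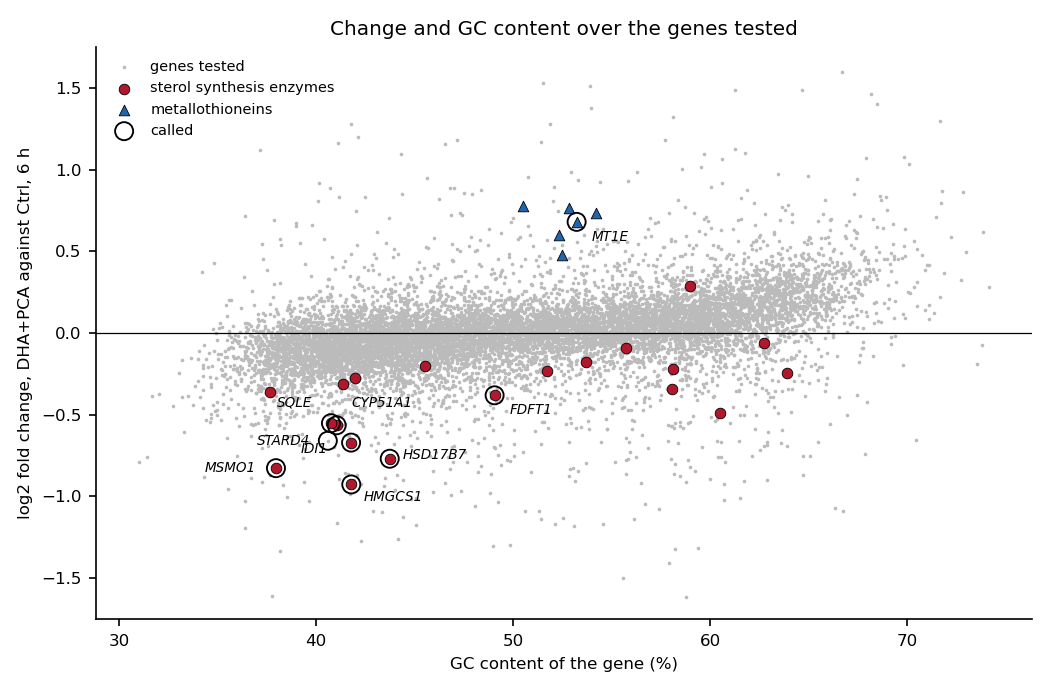
Log2 fold change of DHA + PCA against Ctrl at 6 h (vertical axis) against the GC content of the gene in percent (horizontal axis) for 11195 genes; red circles are the enzymes of cholesterol synthesis, blue triangles the metallothioneins and black rings 9 of the 11 called genes. The grey cloud rises with GC content, and HMGCS1 lies lowest among the ringed genes at -0.93 with a GC content of 41.8%.

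In the mevalonate pathway, 3 of 9 enzyme genes tested fell, and the median log2 fold change was -0.31. HMGCS1 (chr5:43287572-43313614, hg19), which makes HMG-CoA, was at 374, 372 and 346 CPM in Ctrl replicates 1 to 3 and at 194, 185 and 196 CPM in DHA + PCA. The means were 364 ± 15.7 CPM and 191.5 ± 5.71 CPM (SD, n = 3), so the gap between groups was many times the spread within either. Its level was 0.526 times that of Ctrl (log2 fold change -0.93 ± 0.086 SE, edgeR adjusted p 2.87e-06).

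IDI1 (chr10:1085964-1095061), the isomerase that turns isopentenyl diphosphate into its reactive form, was at 185, 181 and 162 CPM in Ctrl and at 129.7, 109.9 and 93.7 CPM in DHA + PCA. It fell by 0.67 ± 0.095 on the log2 scale (edgeR adjusted p 0.000773). Of the 9, 6 did not pass the test. MVK, mevalonate kinase, had a log2 fold change of -0.49 with an adjusted p of 0.459 (edgeR), and its groups overlapped because replicate 3 was higher with DHA + PCA (58.2 CPM) than in Ctrl (54.5 CPM). ACAT2, MVD, FDPS and GGPS1 had log2 fold changes from -0.31 to -0.18, and PMVK, per length the least expressed of the 9, was at 0.29.

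From squalene to cholesterol, 5 of 13 enzyme genes tested fell, with a list median of -0.34. MSMO1 (chr4:166248818-166264314), which starts the removal of the methyl groups at carbon 4 of the sterol ring, was at 249, 217 and 214 CPM in Ctrl and at 148, 117 and 119 CPM in DHA + PCA. It was at 0.564 times the Ctrl level (log2 fold change -0.83 ± 0.090, edgeR adjusted p 2.85e-05). HSD17B7 (chr1:162760492-162782608), the keto-reductase of the same demethylation, was the lowest expressed of the 5, at 38.4, 35.1 and 36.7 CPM in Ctrl and 26.7, 19.2 and 19.1 CPM in DHA + PCA. Its log2 fold change was -0.77 ± 0.13 (edgeR adjusted p 0.00521), and reads of related copies in the genome may be shared with it. It stayed called in 4 of the 9 fits that left out a library or a replicate number, with edgeR adjusted p-values up to 0.999.

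SQLE (chr8:126010720-126034525), squalene epoxidase, which is an oxygen-dependent control step of the route, was at 407, 380.5 and 371 CPM in Ctrl and at 287, 256.5 and 248 CPM in DHA + PCA (log2 fold change -0.55 ± 0.073, edgeR adjusted p 0.00042). CYP51A1 (chr7:91741463-91764059), the lanosterol demethylase, was at 204, 169 and 188 CPM in Ctrl and at 141.5, 117 and 121 CPM in DHA + PCA (-0.56 ± 0.086, edgeR adjusted p 0.00208). FDFT1 (chr8:11653082-11696818), squalene synthase, which commits farnesyl diphosphate to sterols, was at 489, 412 and 453 CPM in Ctrl and at 382, 318 and 339 CPM in DHA + PCA. Its fall was the smallest of the called genes (-0.38 ± 0.070, edgeR adjusted p 0.0196), and leaving out any 1 library or replicate number took it past the threshold, with edgeR adjusted p-values from 0.0531 to 0.999.

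Among the 8 other enzymes, LSS, SC5D, LBR, NSDHL and DHCR7 had log2 fold changes from -0.36 to -0.22 and unadjusted p-values from 0.00258 to 0.0436, without passing the adjusted test. TM7SF2 was at -0.06 and EBP at -0.09. Over both lists, 8 of 22 genes were called lower and none higher, 20 had a negative log2 fold change and 16 were lower in all 3 pairs. Of all genes tested, 18.4% were lower in all 3 pairs and 15.1% higher.

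**Figure D2:**
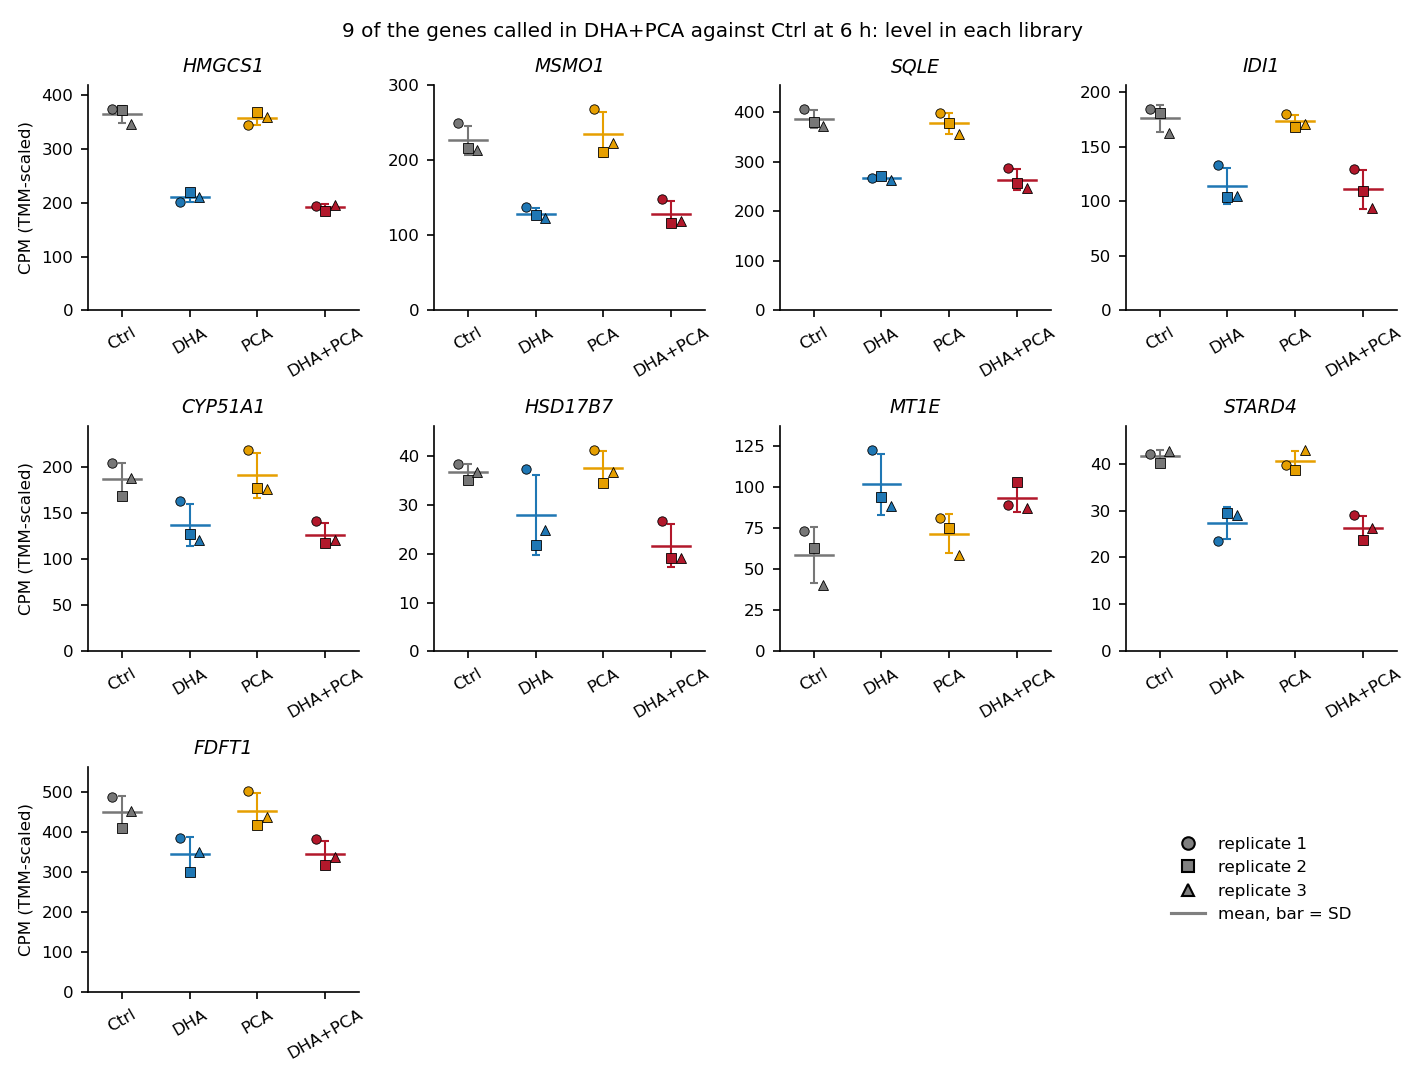
CPM on TMM-scaled library sizes (vertical axes, from 0) of 9 of the 11 called genes in the 3 libraries each of Ctrl, DHA, PCA and DHA + PCA at 6 h, with symbols for the replicate number, the mean as a line and the SD as a bar. In each panel the 3 DHA + PCA values lie to 1 side of the 3 Ctrl values, and for HMGCS1 they lie between 185 and 196 CPM.

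The sterol uptake and traffic list had 2 of 12 genes called lower, with a median log2 fold change of -0.15. STARD4 (chr5:110834022-110848157), a carrier that moves cholesterol between membranes, was at 42.1, 40.2 and 42.6 CPM in Ctrl and at 28.96, 23.8 and 26.3 CPM in DHA + PCA (-0.66 ± 0.12, edgeR adjusted p 0.0116). It stayed called in 3 of the 9 fits that left out a library or a replicate number, with edgeR adjusted p-values up to 0.999. The sterol importer gene NPC1L1 was at -0.28 (edgeR adjusted p 0.513). SCARB1, the receptor for HDL cholesterol, was at 0.22 (edgeR adjusted p 0.5675).

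For each of the 11 called genes the 3 DHA + PCA libraries did not overlap the 3 Ctrl libraries. Among all genes tested, all 3 DHA + PCA libraries lay below all 3 Ctrl libraries in 5.95% and above them in 4.57%. The exact two-sided permutation test of 3 against 3 gave p = 0.1 for each of the 11, the smallest value that this design allows. The lowest raw count of a called gene in any of the 6 libraries was 128, for HSD17B7.

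Promoter sequences of 6 of the 11 called genes were at hand from RefSeq (GRCh38.p14), and they are shown because the genes moved together. The last 200 bases before the start of transcription of the entry used are given 5′ to 3′ on the strand of the gene. Only the first entry of a gene was used, and its start was not matched to that of the transcript counted. A window, that of IDI1 included, may therefore lie before another start. Capitals mark CCAAT or its complement ATTGG, the box bound by the factor NF-Y that is known to work beside SREBP sites. The stretches are chr5:43313413-43313612 (minus strand), chr4:165327469-165327668 (plus), chr5:111512536-111512735 (minus), chr1:162790502-162790701 (plus), chr10:1056705-1056904 (minus) and chr7:92134478-92134677 (minus).
HMGCS1: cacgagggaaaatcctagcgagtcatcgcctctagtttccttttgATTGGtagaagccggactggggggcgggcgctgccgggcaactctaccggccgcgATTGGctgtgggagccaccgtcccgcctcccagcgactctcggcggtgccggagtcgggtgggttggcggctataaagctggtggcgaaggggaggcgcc
MSMO1: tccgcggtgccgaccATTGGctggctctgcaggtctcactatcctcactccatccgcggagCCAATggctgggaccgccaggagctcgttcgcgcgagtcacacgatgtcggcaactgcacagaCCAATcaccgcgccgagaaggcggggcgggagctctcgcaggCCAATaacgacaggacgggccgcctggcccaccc
STARD4: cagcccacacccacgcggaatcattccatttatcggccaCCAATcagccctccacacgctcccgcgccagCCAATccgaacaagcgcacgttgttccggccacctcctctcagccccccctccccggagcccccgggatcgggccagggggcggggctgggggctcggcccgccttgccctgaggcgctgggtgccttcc
HSD17B7: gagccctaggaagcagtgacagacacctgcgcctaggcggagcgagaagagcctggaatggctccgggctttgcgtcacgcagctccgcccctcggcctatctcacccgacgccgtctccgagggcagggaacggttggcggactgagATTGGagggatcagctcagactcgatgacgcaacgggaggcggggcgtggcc
IDI1: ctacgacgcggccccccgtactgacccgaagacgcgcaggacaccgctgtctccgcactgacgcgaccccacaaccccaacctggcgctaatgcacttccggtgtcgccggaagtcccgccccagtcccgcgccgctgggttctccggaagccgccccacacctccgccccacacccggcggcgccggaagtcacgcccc
CYP51A1: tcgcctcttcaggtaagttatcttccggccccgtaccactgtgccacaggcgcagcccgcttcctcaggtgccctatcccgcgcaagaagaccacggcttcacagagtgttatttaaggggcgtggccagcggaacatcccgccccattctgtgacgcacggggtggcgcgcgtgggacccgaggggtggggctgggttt

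In the 250 bases before the start of the entry used, CCAAT on either strand was found in 4 of these 6 promoters, all but IDI1 and CYP51A1. It was found in 12 of the 17 sterol enzyme promoters at hand (70.6%) and in 35.5% of the 9169 promoters of genes tested. MSMO1 held 4 such boxes, HMGCS1 and STARD4 held 2 each and HSD17B7 held 1. Neither letter form searched for the sterol response element, CACCCCAC and TCACNCCAC (which overlap each other), occurred in the 17 windows. They were present in 2.22% and 0.862% of the promoters of genes tested, and their absence says only that these letters are not in these windows.

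MT1E, a metallothionein, was the 1 gene that rose. Of 8 genes tested on the metallothionein and zinc list, 1 was called higher, 7 had a positive log2 fold change, 6 of them at an unadjusted p below 0.05, and the median was 0.64. MT1E (chr16:56659585-56661024) was at 73.4, 63.0 and 40.2 CPM in Ctrl and at 89.2, 102.7 and 87.3 CPM in DHA + PCA. The lowest Ctrl value was that of replicate 3, and the log2 difference within pairs was 0.28, 0.70 and 1.1 for replicates 1, 2 and 3. The level was 1.6 times that of Ctrl (log2 fold change 0.68 ± 0.12, edgeR adjusted p 0.00934).

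MT2A, the most abundant human metallothionein in many tissues, was at 53.9, 65.1 and 33.6 CPM in Ctrl and at 78.9, 97.3 and 76.7 CPM in DHA + PCA. It lay just outside the limit (log2 fold change 0.73 ± 0.15, edgeR adjusted p 0.0506). MT1G was at 29.98, 25.4 and 13.2 CPM in Ctrl and at 43.3, 42.5 and 30.4 CPM in DHA + PCA (0.76 ± 0.16, edgeR adjusted p 0.0786). In all 3 genes Ctrl replicate 3 was the lowest library. With the GC-content offset, MT2A and MT1G passed too, with edgeR adjusted p-values of 0.00912 and 0.0182 (up to 0.999 over the alternatives of each). MT1E stayed called in 4 of the 9 fits that left out samples. Without the libraries of replicate number 3 it had an adjusted p of 0.999 by the same test (2.49e-06 to 0.999 over all alternatives). Metallothionein genes are near-identical neighbours on chromosome 16, so the split of reads between them is uncertain. MTF1 itself and the zinc exporter gene SLC30A1, chosen after their values were seen, did not pass the test, at -0.10 and 0.24.

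The promoter of MT2A (chr16:56608384-56608583, plus strand, GRCh38.p14) is given as the metallothionein nearest the limit with a sequence at hand. Capitals mark the cores of the metal response element searched, TGCGCNC and TGCACNC, on either strand.
MT2A: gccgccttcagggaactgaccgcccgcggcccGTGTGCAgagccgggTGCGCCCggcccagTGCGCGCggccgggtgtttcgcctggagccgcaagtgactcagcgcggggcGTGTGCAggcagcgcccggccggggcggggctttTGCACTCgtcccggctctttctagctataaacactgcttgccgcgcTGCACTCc

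The 250 bases before the start held TGCGCNC 2 times and TGCACNC 5 times. These cores were found in 26.8% and 9.34% of the promoters of genes tested.

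SREBF1, the gene of SREBP-1, did not pass the test. It was at 85.1, 90.8 and 78.6 CPM in Ctrl and at 61.7, 57.1 and 69.1 CPM in DHA + PCA (log2 fold change -0.45 ± 0.12, edgeR adjusted p 0.271). Its groups did not overlap, and with the GC-content offset it passed (-0.61, edgeR adjusted p 2.45e-05, with 2.45e-05 to 0.999 over its alternatives). SREBF2, the gene of SREBP-2, was at -0.11, and of the 8 genes tested for SREBP and its processing none was called (median 0.01) and 1, SREBF1, with the GC-content offset, while INSIG1 was too low to be tested. A few genes lay just outside the limit. CCL20, a chemokine gene, was at 37.4, 29.9 and 31.5 CPM in Ctrl and at 19.1, 16.3 and 15.5 CPM in DHA + PCA (-0.95 ± 0.20, edgeR adjusted p 0.0678). LIPG, endothelial lipase, and BHLHE40, a repressor of the circadian system, were picked after their values were seen, with log2 fold changes of -0.90 (adjusted p 0.0549) and -0.68 (adjusted p 0.0609) in edgeR. CCL20, LIPG and BHLHE40 passed with the GC-content offset, with edgeR adjusted p-values of 0.00912, 0.0224 and 0.0212.

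Genes of fatty acid synthesis did not pass the test at 6 h. None of 8 genes tested for de novo lipogenesis was called (median -0.17). Of the 8, 5 had a negative log2 fold change, 4 of them at an unadjusted edgeR p below 0.05. With the GC-content offset 7 were negative, all 7 at that limit, and the median was -0.24, still with none called. Over all 11872 genes, 490 were lower at that limit with the offset. ACLY, which makes cytosolic acetyl-CoA from citrate, was at 429, 423 and 443 CPM in Ctrl and at 379.6, 369.7 and 364 CPM in DHA + PCA, without overlap, and its log2 fold change was -0.22 ± 0.067 (edgeR adjusted p 0.432). ACACA, acetyl-CoA carboxylase, was at -0.28 and ACSS2, which activates acetate, at -0.31 (edgeR adjusted p 0.441 and 0.293). FASN, fatty acid synthase, was at 0.02 (95% interval -0.22 to 0.26). PNPLA3, a lipid droplet hydrolase gene driven by SREBP-1, was at -0.58 (edgeR adjusted p 0.319).

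None of 10 desaturase and elongase genes tested was called (median -0.15), and none with the GC-content offset (median -0.08). SCD, the stearoyl-CoA desaturase, was at 2615, 1938 and 2153 CPM in Ctrl and at 2369, 1564 and 1663 CPM in DHA + PCA, lower in all 3 pairs while the groups overlapped (-0.27 ± 0.064, edgeR adjusted p 0.165). In the joint fit of both times SCD passed at 6 h, with the same log2 fold change and an edgeR adjusted p of 0.0303. ELOVL6 was at -0.33, FADS1 at -0.15 and FADS2 at 0.02. ELOVL3, at 1.28, had at most 1.34 CPM in any library and an SE of 0.65.

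None of the other lists held a called gene. In the NRF2 antioxidant list 15 of 18 genes had a positive log2 fold change (5851 of all 11872), with a median of 0.15. In all 3 pairs 10 of the 18 were higher, against 15.1% of all genes tested. At an unadjusted edgeR p below 0.05, 5 were higher, and 8 with the GC-content offset, where 2 were called. OSGIN1 and SRXN1 stood at 0.66 and 0.37 without the offset (edgeR adjusted p 0.2565 and 0.228). The fatty acid activating enzymes ACSL4 and ACSL3 were at -0.55 and -0.37 (edgeR adjusted p 0.293 and 0.2375). CPT1A and CREB3L3, the gate of mitochondrial fatty acid oxidation and a hepatocyte transcription factor, were at 0.53 and 0.48 (adjusted p 0.444 and 0.507), and the list of PPAR alpha targets and fatty acid oxidation had a median of 0.02 over 18 genes. APOA5 and APOE, apolipoproteins of triglyceride-rich particles, were at 0.43 each (edgeR adjusted p 0.4305 and 0.507). With the GC-content offset they were at 0.31 and 0.13. ABCA1, the LXR target that exports cholesterol, was at -0.37 (edgeR adjusted p 0.546). DNAJB9, VEGFA and TRIB3 on the stress list were at -0.48, -0.25 and -0.24, and none of 16 genes tested there was called. The lists for the aryl hydrocarbon receptor, phenolic acid conjugation, immediate early genes, NF-kB targets and DNA replication and mitosis had medians of -0.05, -0.01, 0.14, -0.06 and 0.04, and those for lipid droplets, fatty acid uptake, apolipoproteins and bile acids 0.12, -0.01, -0.01 and -0.06.

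**Figure D3:**
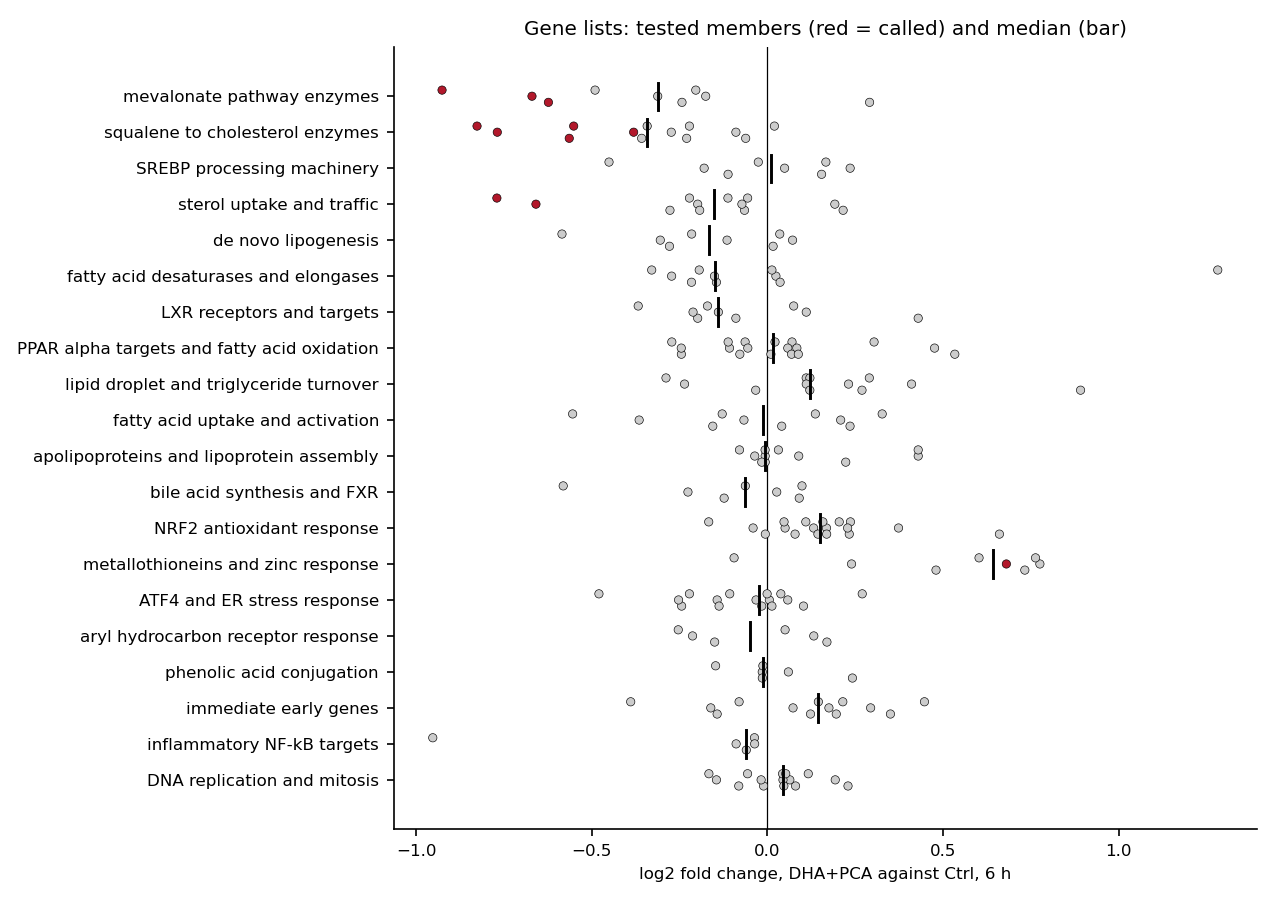
Log2 fold change of DHA + PCA against Ctrl at 6 h (horizontal axis) of every tested member of the 20 gene lists (rows), with called genes in red and the list median as a bar. Red points occur on 4 lists, and the medians run from -0.34 for squalene to cholesterol to 0.64 for metallothioneins.

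Whether PCA added to DHA was asked by comparing DHA + PCA with DHA alone. No gene was called (0%), with 389 genes at an unadjusted p below 0.05 and a lowest adjusted p of 0.999 (edgeR), and none was called by DESeq2's Wald test or edgeR's likelihood ratio test. For HMGCS1 the DHA libraries were at 202, 219 and 209.5 CPM, and the difference of DHA + PCA from DHA was -0.13 on the log2 scale (95% interval -0.31 to 0.045). For MSMO1 the difference was -0.02 (-0.21 to 0.17), for SQLE -0.02 (-0.17 to 0.13) and for STARD4 -0.05 (-0.30 to 0.20). With 3 samples a group, the values remain compatible with any difference inside these intervals. HSD17B7 differed most among the called genes, at 37.3, 21.9 and 24.8 CPM with DHA, with a difference of -0.36 (-0.63 to -0.096), an unadjusted p of 0.00986 and an adjusted p of 0.999 in edgeR. Over the 22 sterol enzymes, 11 lay below and 11 above 0. The genes with the lowest p, MINOS1 and COX6C of mitochondria, the protease inhibitor PZP, SPATA6 and HSPBAP1, had unadjusted p-values from 0.00104 to 0.00227.

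Against PCA alone, the combined treatment lowered 12 genes (0.101%) and raised none. They were the 10 genes that fell against Ctrl and, beside them, SREBF1 and LIPG. HMGCS1 was at 344, 368 and 358 CPM with PCA, close to its Ctrl level, and its log2 fold change against PCA was -0.90 ± 0.086 (edgeR adjusted p 5.17e-06). SREBF1 was at -0.68 ± 0.12 (edgeR adjusted p 0.00751). LIPG was at 7.85, 11.2 and 12.3 CPM with PCA and at 4.255, 5.06 and 6.87 CPM with DHA + PCA (-0.96 ± 0.18, edgeR adjusted p 0.0281). MT1E did not pass in this comparison (0.39 ± 0.12, edgeR adjusted p 0.805). Both comparisons use the same 3 DHA + PCA libraries.

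The departure of DHA + PCA from the sum of the single effects was tested as an interaction on the log2 scale. No gene was called (0%), with 267 genes at an unadjusted p below 0.05, and none by DESeq2's Wald test or edgeR's likelihood ratio test. The interaction was -0.10 for HMGCS1 (95% interval -0.35 to 0.15), -0.06 for MSMO1 (-0.33 to 0.20) and -0.01 for STARD4 (-0.35 to 0.33). For MT1E it was -0.40 (-0.74 to -0.056) with an unadjusted p of 0.0243 and an adjusted p of 0.9996 in edgeR. Of the 8 metallothionein list members, 5 had a negative interaction at an unadjusted p below 0.05, against 267 of all 11872 genes in either direction. With PCA alone 4 of the 8 were higher than Ctrl at that edgeR limit (list median 0.35). The metallothioneins may share reads, and each interaction uses the same Ctrl libraries, of which replicate 3 was the lowest for MT1E, MT2A and MT1G. The 5 are therefore not separate results. The lowest p-values belonged to CD83, PLEKHN1, FILIP1L, HBA2 and IRAK1BP1.

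The effects of the other treatments against the same Ctrl libraries are set side by side for the genes above. DHA alone gave 18 called genes (0.152%), DHA + PRO gave 13 (0.11%) and PCA alone gave none (0%), with 217 genes at an unadjusted p below 0.05 for PCA. HMGCS1 had log2 fold changes of -0.93 with DHA + PCA, -0.79 with DHA, -0.80 with DHA + PRO and -0.03 with PCA. HSD17B7 was at -0.77, -0.41, -0.49 and 0.03 in the same order. MT1E was at 0.68, 0.79, 0.65 and 0.29. The median over the 22 sterol enzymes was -0.33 with DHA + PCA, -0.37 with DHA, -0.32 with DHA + PRO and 0.02 with PCA. Since all 4 comparisons share the Ctrl samples, likeness between them is not independent evidence.

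**Figure D4:**
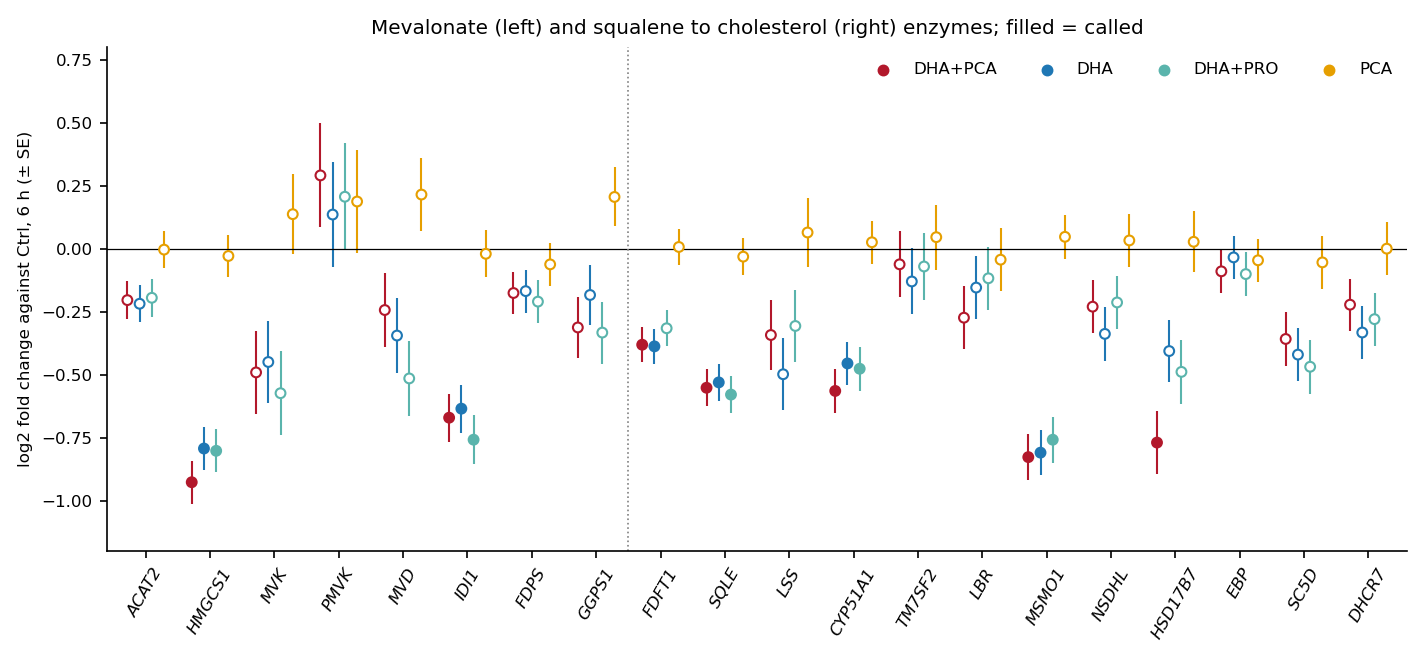
Log2 fold change against Ctrl at 6 h with its SE (vertical axis) of 8 mevalonate and 12 squalene to cholesterol enzymes (horizontal axis) for DHA + PCA, DHA, DHA + PRO and PCA, which share the Ctrl libraries; filled points were called. With DHA + PCA 7 genes are filled, and with PCA none is.

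The change after 24 h was set against that after 6 h in a joint fit of all 36 libraries, in which no sample is shared between times. In this fit 17 genes were called for DHA + PCA against Ctrl at 6 h and 100 at 24 h. MT1E was not called at 6 h there (edgeR adjusted p 0.0568), while MT2A was (0.73, edgeR adjusted p 0.0214), as was SRXN1 of the NRF2 list (0.38, edgeR adjusted p 0.0409). Of the 22 sterol enzymes, 8 were called lower at 6 h and 14 at 24 h. The Ctrl level of HMGCS1 was 372, 366 and 344 CPM at 6 h and 878.5, 909 and 838 CPM at 24 h. The test of the difference between the effects at the 2 times called 7 of 12046 genes (0.0581%), none of them among the 11 genes above. For these 11, the effect at 24 h minus that at 6 h ran from -0.22 for FDFT1 (edgeR adjusted p 0.46) to 0.27 for HSD17B7 (adjusted p 0.622). HMGCS1 had a log2 fold change of -0.92 ± 0.11 at 6 h and of -0.73 ± 0.10 at 24 h in this fit.

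Desaturase genes were among those that differed between times, while none of the 8 genes tested for de novo lipogenesis was called. SCD and FADS2 were among the 7, with log2 fold changes of -0.27 and 0.03 at 6 h and of -0.75 and -0.74 at 24 h. FASN (0.02 and -0.82) and ACSS2 (-0.30 and -0.79) lay just outside, with edgeR adjusted p-values of the difference of 0.0537 and 0.0534. The count of 7 rests on the block within each time and on replicate number 3, since no gene was called without either. The joint fit includes the deepest library of the series, DHA + PRO of 24 h replicate 2 with 42326734 counts, and without it 6 genes were called.

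**Figure D5:**
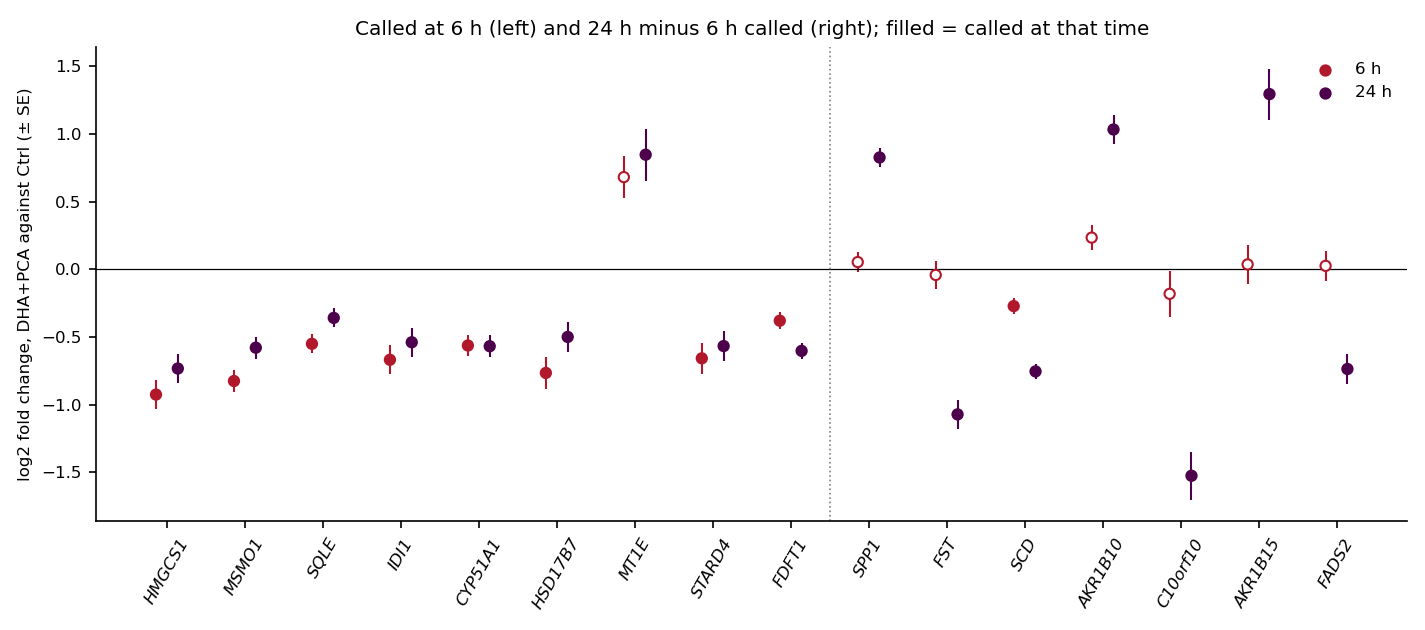
Log2 fold change of DHA + PCA against Ctrl with its SE (vertical axis) at 6 h and 24 h in the joint fit, for 9 of the 11 genes called at 6 h (left of the dotted line) and the 7 genes whose effect differed between times (right); filled points were called at that time. The sterol genes lie below 0 at both times, for example at -0.56 and -0.57 for CYP51A1, while FST went from -0.04 to -1.07.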

How the data were processed

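RNA of HepG2 cells was sequenced after 6 h and 24 h of treatment in 6 groups with 3 samples each, from separate cell cultures with the RNA of 3 wells pooled per sample. The authors mapped the reads to hg19 with STAR and counted them per RefSeq gene by the iRNA-seq pipeline. What they deposited were raw counts for 18932 genes without normalization, beside a counted length per gene, an other value used here for reads per kilobase. Unique molecular identifiers were not described, so counts are reads, and the kit does not mark strand. No column belonged to a sample outside the 36.

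For the comparisons of 6 h, all 18 samples of that time were fitted with edgeR 4.0.16 in R 4.3.3 (TMM scaling, filterByExpr, quasi-likelihood test) with group and replicate number as terms. The difference between times came from a joint fit of 36 samples with the replicate block within each time. A gene was called where its Benjamini-Hochberg adjusted p was no higher than 0.05 at an average log2 CPM over 0. CPM values use TMM-scaled library sizes, and an SE is the log2 fold change divided by the root of its F statistic. Figures were drawn with matplotlib 3.10.9. The fit of the 18 samples of 6 h was run on simulated counts with known changes and no replicate effect. The joint fit and the other fits were not run on such counts.

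The replicate block was set with the comparison, although the labels do not say that a number marks a shared day. Deviations from the group means in Ctrl and DHA + PCA of 6 h correlated at 0.415, 0.0354 and 0.19 for replicates 1, 2 and 3. The pairing is therefore not certain. Counts of called genes without the block are given, with adjusted p-values for the called genes named. No pair of libraries of a group agreed within sampling noise. P-values set a difference against the spread left between all samples of a fit, other treatments included, once group and block are accounted for.

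The gene lists and the comparison itself were chosen with earlier results of these data known. Named genes are the called genes, members of the 6 lists for sterols, SREBP, sterol uptake, lipogenesis and desaturases, up to 3 members of each other list with the lowest p, and up to 5 genes with the lowest p in each further comparison. Alternatives were other scalings, DESeq2 1.42.0, a likelihood ratio test, other filters, a fit of the compared groups alone, other blocks, a GC-content offset, and leaving out samples. For single genes they were recomputed only where the unadjusted p was below 0.05. Promoters are RefSeq sequences of GRCh38.p14, another build than that of the counts, and 9169 of 11872 tested genes matched (77.2%). The match was by gene name with the first entry kept, not by the transcript counted. No entry was used for MT1E, SQLE or FDFT1. Some genes that were tested and counted are not reported here by name.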

Additional observations from a re-analysis of the deposited data

Results flagged for a closer look

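The effect of DHA + PCA differed between 24 h and 6 h for 7 genes in the joint edgeR quasi-likelihood test. Each value below is the log2 fold change against Ctrl at 24 h minus that at 6 h.

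SPP1, the secreted phosphoprotein osteopontin, differed by 0.77 (adjusted p 0.000123). At 6 h it was at 338, 184 and 244 CPM in Ctrl and 387, 199.9 and 219 CPM in DHA + PCA, and at 24 h at 201, 221 and 223 CPM in Ctrl and 332, 400.2 and 415 CPM in DHA + PCA. The groups overlapped at 6 h and not at 24 h.

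FST, follistatin, which binds activin, differed by -1.03 (adjusted p 0.000389 by edgeR), with 55.3, 74.2 and 70.1 CPM in Ctrl and 25.5, 34.96 and 34.8 CPM in DHA + PCA at 24 h. C10orf10 differed by -1.34 (edgeR adjusted p 0.00997), with 55.7, 66.8 and 83.4 CPM in Ctrl and 15.1, 34.2 and 26.01 CPM in DHA + PCA at 24 h. Both were near their Ctrl level at 6 h, with log2 fold changes of -0.04 and -0.18.

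The desaturase genes SCD and FADS2 differed by -0.48 and -0.76 (edgeR adjusted p 0.00366 and 0.0371). SCD stood at 4101, 4208 and 4161 CPM in Ctrl of 24 h and at 2546, 2615 and 2247 CPM with DHA + PCA.

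AKR1B10 and AKR1B15, aldo-keto reductases, differed by 0.80 and 1.26 (edgeR adjusted p 0.0077 and 0.0166). AKR1B10 was at 37.0, 46.3 and 52.8 CPM in Ctrl and 87.3, 92.0 and 98.3 CPM in DHA + PCA at 24 h. AKR1B15, chosen after its values were seen, was at 4.02 to 5.52 CPM in Ctrl and 10.8 to 11.8 CPM in DHA + PCA. They are near-identical copies, so the split of reads between them is uncertain. None of the 7 was called without the replicate block or without replicate number 3.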

How the results depend on the processing

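Counts of called genes are given in the order DHA + PCA against Ctrl, DHA + PCA against PCA, and 24 h minus 6 h (11, 12 and 7 as reported). They were 2, 3 and 0 without the replicate block, 168, 41 and 54 in fits of the compared groups alone, 23, 16 and 19 with DESeq2's Wald test, 22, 16 and 14 with edgeR's likelihood ratio test, 150, 20 and 25 without the low-count filter, 25, 18 and 15 with the GC-content offset and block, and 8, 7 and 0 with the library series as block. With a block shared by both times, chosen after seeing the data, the count for 24 h minus 6 h was 0, and 6 without DHA + PRO of 24 h replicate 2. Leaving out samples gave 1 to 18, 2 to 12, and 0 to 8 genes. The lowest counts against Ctrl came without replicate 3 (1 gene) and without Ctrl replicate 3, DHA + PCA replicate 2 or DHA + PCA replicate 3 (7 each), and the highest without Ctrl replicate 2 (18) and replicate 1 (17). DHA + PCA against DHA and the interaction gave 0 in all alternatives run. Of the values of single genes under an alternative, 958 kept their side of the threshold, 44 lost it, 58 gained it and 0 changed direction. The 11 genes called against Ctrl had at least 128 counts in each of the 6 libraries. The cause of these differences was not tested.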
